A study of Mus musculus with 4 samples.

Results

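Ribosome biogenesis and nucleolar genes were followed through 4 microarray libraries of mouse BA/F3 cells. The set holds 45 genes, chosen by name as nucleolar and ribosome assembly genes with Myc left out. A gene was measured by a probe set whose platform symbol was that gene alone, and where several such probe sets existed the one with the highest mean over the 4 libraries stood for it. In this way 44 of the 45 genes were represented, and all 44 passed the filter on low values, among 8892 genes represented likewise on the array. Mrto4, a large-subunit assembly factor, was left out because its probe set lists several symbols. The members were not chosen by their measured values, but they were chosen with earlier results of these libraries known.

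BA/F3 is an established mouse line of early B-lineage type that needs interleukin 3 to grow. Going by title, source name and genotype, 2 libraries came from BA/F3 cells with an inducible ETV6-RUNX1 (TEL-AML1) fusion of human sequence, the product of a translocation found in childhood B-cell leukemia, and 2 came from control BA/F3 cells without it, which the series design text calls empty vector lines. All 4 cultures received the inducer mifepristone at 32.5 pM for 16 h before total RNA was taken, so the agent is shared by both groups. The comparison addresses which transcripts differ between induced cells with the fusion and control cells given the same agent. No culture was left without the inducer. Expression of the fusion and other differences between the lines therefore cannot be told apart. Whether each line is 1 clone is not given in the sources used here. The markers of the early B lineage were mostly at background: of 13 such genes on the array only Cd79b passed the filter, at 8.31 to 8.81, whereas Pax5 and Ebf1 read between 2.23 and 2.29 in every library, against a lowest value of 2.23 on the array.

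The labels conflict, and every comparison of fusion with control over all 4 libraries depends on which label is used. In the description field both replicate 1 libraries carry the opposite condition: there ETV6-RUNX1 replicate 1, so named in its title, is a control, and control replicate 1 is fusion-expressing. For both replicate 2 libraries the description and the title name the same condition. Values are therefore given by title and by description, and libraries keep the names of their titles. Source name and genotype follow the title, and the measured values were not used to choose between the labels. The design text and the titles speak of chromatin immunoprecipitation, but by the protocols total RNA was extracted, so the values were read as RNA levels.

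Ribosome assembly starts in the nucleolus, where RNA polymerase I transcribes a long precursor rRNA. Small nucleolar ribonucleoproteins (snoRNPs) modify that precursor, the small-subunit processome cleaves and folds the part that becomes the small (40S) subunit, and a separate set of factors builds the large (60S) subunit around the remainder. Many of these genes carry E-boxes and are textbook targets of MYC, and their transcript levels are known to follow cell growth.

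The E-box CACGTG, the canonical binding sequence of MYC and related factors, was searched in member promoters because ribosome assembly genes are textbook MYC targets. RefSeq promoters (mouse build GRCm38.p6) run from 250 bases before to 50 bases after a gene's annotated start. Of the 45 genes, 40 had an entry, and Rrp12, Fbl, Rrs1, Npm1 and Bop1 had none. The E-box reads the same on both strands and was found in the promoters of 10 of the 40 genes. The share was 18.6% for 97 other ribosome assembly genes, 12.5% for 7356 genes measured here and 8.09% for all 27025 genes of the promoter table. These sites are shown with up to 12 bases on each side, read 5′ to 3′ on the gene's strand, with the E-box in capitals. A window is shorter where the promoter entry ends.
Imp4 (chr1:34439696-34439725, plus strand): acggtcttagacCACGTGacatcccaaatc
Nop2 (chr6:125131811-125131840, plus strand): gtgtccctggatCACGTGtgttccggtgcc
Ltv1 (chr10:13193092-13193121, minus strand): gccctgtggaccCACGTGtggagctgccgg
Utp20 (chr10:88826765-88826789, minus strand): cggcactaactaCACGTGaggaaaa
Pes1 (chr11:3963965-3963994, plus strand): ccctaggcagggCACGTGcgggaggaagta
Pno1 (chr11:17211540-17211564, minus strand): tgtacaaccacgCACGTGttcctct
Mybbp1a (chr11:72441355-72441376, plus strand): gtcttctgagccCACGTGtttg
Tsr1 (chr11:74898092-74898121, plus strand): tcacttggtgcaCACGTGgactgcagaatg
Rrn3 (chr16:13780472-13780501, plus strand): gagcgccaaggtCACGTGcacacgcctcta
Rrn3 (chr16:13780639-13780668, plus strand): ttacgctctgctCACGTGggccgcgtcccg
Wdr43 (chr17:71616220-71616249, plus strand): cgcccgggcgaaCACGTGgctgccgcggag
The sites in Imp4 and Nop2 and both sites in Rrn3 lay before the start, with the E-box beginning at positions -121, -60, -215 and -48 from it, and the other 7 lay after it. Rrn3 was the member with 2 E-boxes, and its 250 bases before the start are shown whole because both sites fall in them.
Rrn3 upstream (chr16:13780449-13780698, plus strand): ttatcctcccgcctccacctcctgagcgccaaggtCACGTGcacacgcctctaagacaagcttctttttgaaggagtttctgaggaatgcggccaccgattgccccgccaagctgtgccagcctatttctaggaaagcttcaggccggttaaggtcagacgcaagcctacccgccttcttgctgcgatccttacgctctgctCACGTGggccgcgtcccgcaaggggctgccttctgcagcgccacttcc
The RUNX core, searched as TGTGGT or TGCGGT on both strands, was present in 27.5% of the 40 member promoters, against 24.6% of promoters of the genes measured here. A match in letters is not a bound site, and no binding was measured.

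By description, nearly the whole set read lower in the libraries called fusion-expressing. Of 44 members 43 had a lower mean there, with a median log2 difference of -1.20 and a range from -1.94 for Rrp12 to 0.42 for Ubtf. The median over all 8892 genes was 0.01, and 48.4% of all genes were lower. In 42 members the libraries described as fusion-expressing both lay below both libraries described as control, against 25.6% of all genes, and 31 members were also at least 2-fold lower, which is 70.5% of the 44 against 3.67% of all genes. An unadjusted p under 0.05 with a lower level was reached by 35 members, against 9.76% of all genes. No member passed an adjusted p of 0.05 in limma, where 0.0% of all genes did (the 2 probe sets that passed on the whole array stand for no gene here), and the members' adjusted p-values lay between 0.126 and 0.683. With control replicate 1 left out the count of members at least 2-fold lower was 16 in place of 31. In bulk RNA, fewer cells of a type and less RNA per cell cannot be told apart. Nothing in the labels says that the replicates came from separate cultures, and the p-values reflect only how far these libraries spread. With 2 libraries a group, a missed threshold does not show that a member did not differ.

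By title, the same members did not separate. Here 30 were higher and 14 lower in the libraries titled ETV6-RUNX1, with a median difference of 0.09 and a range from -0.33 for Rrp9 to 0.32 for Nop56. No member's groups failed to overlap, against 9.67% of all genes in either direction. In limma 0 members passed, as did 0.0% of all genes, the adjusted p was 1 for every member, and an unadjusted p under 0.05 occurred in 0. Among 4 untied values only 1 of the 3 ways to form pairs can leave the pairs without overlap, so the separation by description and its absence by title are a single observation. The count of 14 lower members changed with single libraries, to 39 without ETV6-RUNX1 replicate 1, 44 without control replicate 1, 0 without control replicate 2 and 3 without ETV6-RUNX1 replicate 2.

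The 4 libraries kept almost the same order from gene to gene. Control replicate 2 gave the highest value in 38 of 44 members and ETV6-RUNX1 replicate 1 the second highest in 37. ETV6-RUNX1 replicate 2 came next in 38, and control replicate 1 was the lowest in 39. The median member value was 10.85, 10.34, 9.71 and 9.14 in that order. Split into parts, the members' variance over the libraries was 81.8% by description, 16.3% by replicate number and 1.87% by title, whereas over all genes these shares were 62.0%, 30.3% and 7.69%. Replicate 1 read lower than replicate 2 by a median of 0.43 over the members, and 5 members were higher in replicate 1.

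**Figure D1:**
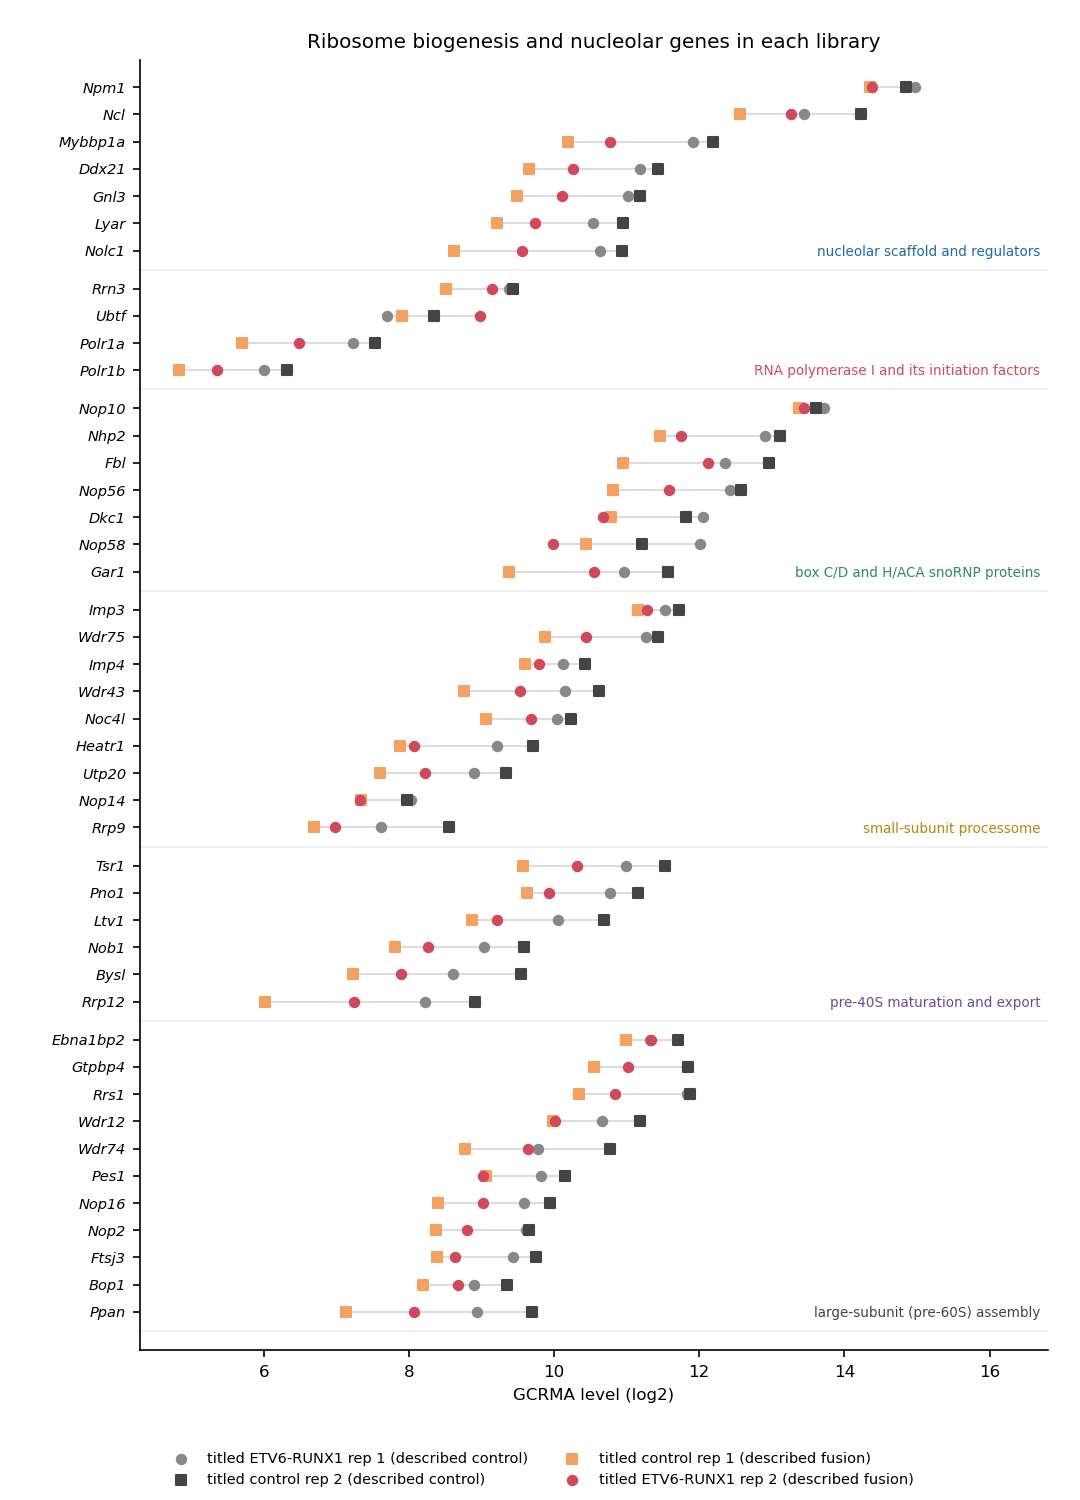
GCRMA level (log2, horizontal axis) of each of the 44 members in the 4 libraries, grouped by role and sorted within a role by mean value, which does not rank transcript amount between genes. Grey and black points are the libraries described as control, orange and red those described as fusion-expressing, circles are titled ETV6-RUNX1 and squares control; in 42 members both orange and red points lie left of both grey and black ones.

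The replicate 2 pair is the only one for which every label agrees. With 1 library on each side its differences have no replicate check, and they also enter the description grouping. The library titled ETV6-RUNX1 replicate 2 read below control replicate 2 in 43 of 44 members, with a median difference of -1.08 against 0 over all genes. Of these, 26 were at least 2-fold lower, or 59.1% of members against 4.21% of all genes. In the replicate 1 pair, control replicate 1 read below ETV6-RUNX1 replicate 1 in 43 members with a median of -1.25, and 30 were at least 2-fold lower, against 5.13% of all genes. Turned by title, the replicate 1 differences have the opposite sign. In both pairs 23 members, 52.3%, were at least 2-fold lower in the library described as fusion-expressing, against 2.46% of all genes. Of the 43 members lower in both pairs, 29 had the larger difference in the replicate 1 pair. Across the 44 members the differences of the pairs, which share no library, correlated at a Pearson r of 0.76, and across all genes at 0.78; genes measured on the same arrays are not independent.

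**Figure D2:**
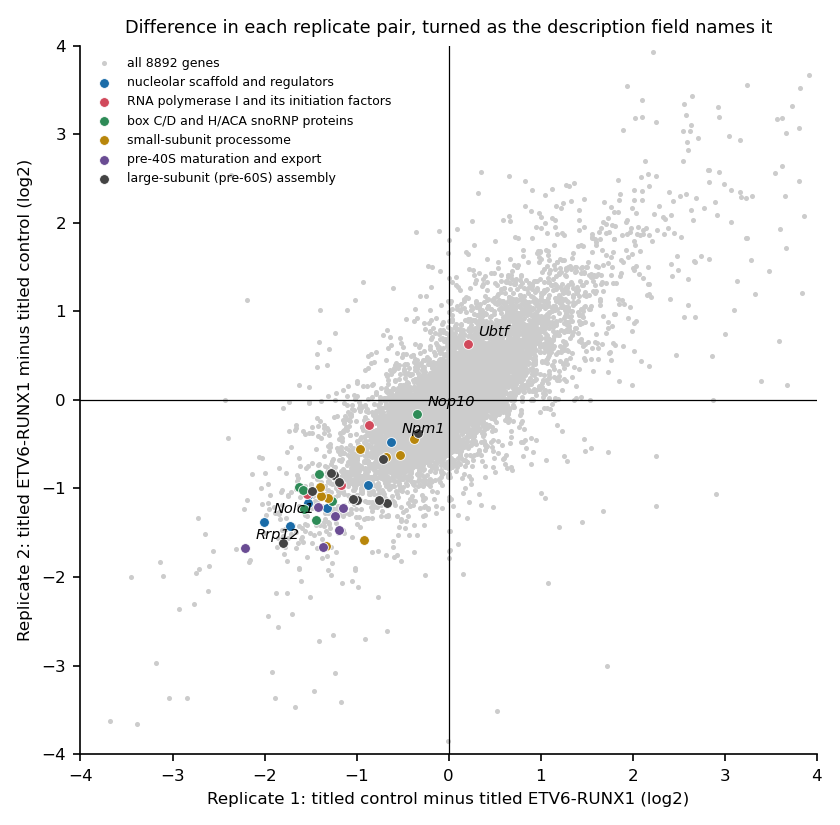
Log2 difference in the replicate 1 pair (horizontal axis, titled control minus titled ETV6-RUNX1) against the replicate 2 pair (vertical axis, titled ETV6-RUNX1 minus titled control), both turned as the description field names the libraries. Grey points are all 8892 genes, of which 44 lie beyond the axes at 4, and coloured points are the members by role; 43 members lie at the lower left, and Ubtf lies in the upper right.

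Among the nucleolar scaffold and regulator genes all 7 were lower by description, with a median of -1.30, and 0 passed in limma. Members are shown in this and the next groups as those with the highest mean values on the array and those with the largest and smallest differences by description, with replicate 1 given first in each pair of values. Npm1, which encodes the nucleolar chaperone nucleophosmin, read 14.98 and 14.85 in the libraries described as control and 14.35 and 14.38 in those described as fusion-expressing. The values were tight within each pair, and Npm1 was 1.46-fold lower (-0.55 on the log2 scale, SE 0.07, limma adjusted p = 0.131). Ncl, encoding nucleolin, which binds nascent precursor rRNA, read 13.45 and 14.23 against 12.57 and 13.27. Its lower control library lay just above its higher fusion-described library, and the difference was -0.92 (SE 0.39, limma adjusted p = 0.313). Mybbp1a, a nucleolar protein that regulates rRNA transcription and processing, read 11.91 and 12.19 against 10.19 and 10.76 (-1.58, SE 0.26, limma adjusted p = 0.144). Nolc1, a nucleolar phosphoprotein that chaperones snoRNPs, had the largest difference of the group, with 10.63 and 10.93 against 8.62 and 9.55 and a 3.24-fold lower level (-1.69, SE 0.38, limma adjusted p = 0.173). By title these 4 genes differed by 0.08, -0.04, 0.15 and 0.32, with SEs of 0.29, 0.62, 0.86 and 0.96. The helicase gene Ddx21, the nucleostemin gene Gnl3 and Lyar, a nucleolar growth regulator, lay between -1.27 and -1.35 by description.

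RNA polymerase I and its initiation factors were the group with an exception. By description 3 of 4 were lower, with a median of -0.82 and 0 passing in limma. Polr1a, the largest subunit of the enzyme, read 7.24 and 7.54 in the libraries described as control and 5.69 and 6.48 in those described as fusion-expressing (-1.30, SE 0.35, limma adjusted p = 0.195). Polr1b, the second subunit, differed by -1.07 (SE 0.28). Rrn3, the factor that makes the polymerase competent to initiate, read 9.38 and 9.43 against 8.51 and 9.14, a smaller gap of -0.58 (SE 0.27, limma adjusted p = 0.346), of which -0.87 came in the replicate 1 pair and -0.29 in the replicate 2 pair. Ubtf, the upstream binding factor that keeps rDNA in an open state, read 7.69 and 8.35 against 7.90 and 8.97. Its groups overlapped, and it was the only member with a higher mean in the libraries described as fusion-expressing (0.42, SE 0.48, limma adjusted p = 0.683). Without ETV6-RUNX1 replicate 2 the Ubtf difference was -0.12. All 4 genes were on average higher by title, by 0.10 to 0.29, with SEs of 0.42 to 0.77.

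All 7 snoRNP protein genes were lower by description, with a median of -1.30, and 0 passed in limma. Box C/D particles guide 2′-O-methylation of rRNA and H/ACA particles guide pseudouridylation. Of the box C/D proteins, the methyltransferase gene Fbl read 12.36 and 12.96 in the libraries described as control and 10.95 and 12.12 in those described as fusion-expressing (-1.12, SE 0.49, limma adjusted p = 0.321). The pair within each label differed widely, and 12.12 lay close to 12.36. Nop58, a core scaffold of the same particle, read 12.01 and 11.22 against 10.44 and 9.99, a 2.64-fold lower level (-1.40, SE 0.35, limma adjusted p = 0.184). Unlike most members, Nop58 was higher in replicate 1 than in replicate 2 under both descriptions. Nhp2, an H/ACA core protein, read 12.90 and 13.11 against 11.46 and 11.75, a 2.64-fold lower level with a small spread (-1.40, SE 0.16). Its limma adjusted p = 0.126 was the lowest among the members. Nop10, another H/ACA protein, read 13.72 and 13.61 against 13.38 and 13.45 and had the smallest difference of the group (-0.25, SE 0.08, limma adjusted p = 0.227). The difference was -1.30 for Nop56, -1.21 for the pseudouridine synthase gene Dkc1 and -1.30 for Gar1. By title all 7 were on average higher, by 0.04 to 0.32, and none separated.

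In the small-subunit processome, which assembles on the precursor rRNA during transcription, all 9 members were lower by description, with a median of -1.19 and 0 passing in limma. Imp3, which helps pair the U3 snoRNA with the precursor, read 11.53 and 11.72 in the libraries described as control and 11.16 and 11.28 in those described as fusion-expressing. The groups did not overlap, but the difference was the smallest of the processome genes, at -0.41 (SE 0.13, limma adjusted p = 0.228). Imp4, its partner, read 10.13 and 10.42 against 9.60 and 9.80 (-0.58, SE 0.18, limma adjusted p = 0.227). Wdr75, a subunit of the complex that first binds the precursor, read 11.27 and 11.43 against 9.87 and 10.44 (-1.19, SE 0.24, limma adjusted p = 0.162). Heatr1, another subunit of that early complex, read 9.22 and 9.71 against 7.88 and 8.06, a 2.81-fold lower level that was the largest in the group (-1.49, SE 0.25, limma adjusted p = 0.144). The remaining genes were Wdr43, Noc4l, Utp20, Nop14 and Rrp9, the last a U3 snoRNP protein, and they lay between -0.66 and -1.25. By title the 9 genes split into 4 lower and 5 higher, from -0.33 to 0.21.

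The pre-40S maturation and export genes were all at least 2-fold lower by description, 6 of 6, with a median of -1.32 and 0 passing in limma. Each was also at least 2-fold lower in both pairs. Rrp12, a HEAT-repeat protein needed for export of pre-ribosomes, had the largest difference of all 44 members, with 8.23 and 8.91 in the libraries described as control and 6.01 and 7.24 in those described as fusion-expressing (3.84-fold lower, -1.94 on the log2 scale, SE 0.54, limma adjusted p = 0.200). The lower reading in control replicate 1 gave a difference of -2.21 in the replicate 1 pair against -1.67 in the replicate 2 pair. Tsr1, a GTPase-like factor on the pre-40S particle, read 10.99 and 11.52 against 9.57 and 10.31 (-1.32, SE 0.35, limma adjusted p = 0.195). Ltv1, a factor released during maturation, read 10.05 and 10.69 against 8.86 and 9.22 (-1.33, SE 0.30, limma adjusted p = 0.173). Pno1, which binds near the cleavage site of the 18S rRNA end, read 10.77 and 11.15 against 9.62 and 9.93 (-1.19, SE 0.22, limma adjusted p = 0.149), the smallest difference of these 6. Bysl differed by -1.51 and Nob1, the nuclease that makes that final cut, by -1.27. By title, 4 of the 6 were lower and 2 higher, from -0.14 to 0.27.

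Large-subunit assembly genes were lower in 11 of 11 measured members by description, with a median of -1.05 and 0 passing in limma. Rrs1, which helps bring the 5S ribonucleoprotein into the particle, read 11.84 and 11.87 in the libraries described as control and 10.35 and 10.84 in those described as fusion-expressing (-1.26, SE 0.21, limma adjusted p = 0.144). Gtpbp4, a nucleolar GTPase, read 11.84 in both libraries described as control and 10.56 and 11.02 in the others (-1.05, SE 0.20, limma adjusted p = 0.151). Ppan, a member of the Brix family of assembly factors, read 8.94 and 9.69 against 7.14 and 8.07 and was 3.28-fold lower, the largest difference of the group (-1.71, SE 0.46, limma adjusted p = 0.196). Ebna1bp2, the counterpart of yeast Ebp2, read 11.32 and 11.71 against 10.99 and 11.34. The groups overlapped by a small margin, and the difference of -0.35 was within the spread (SE 0.22, limma adjusted p = 0.457). The 3 partners of the PeBoW complex, which is needed for maturation of the large subunit, differed by -0.94 for Pes1, -0.69 for Bop1 and -0.91 for Wdr12. The other members, Nop2, Nop16, Wdr74 and Ftsj3, lay between -1.05 and -1.08. By title the 11 genes ranged from -0.25 to 0.23, with 5 lower and 6 higher.

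Members differed in size more than in direction. Just past 2-fold lay Nop2 at -1.05, Gtpbp4 at -1.05 and Nop16 at -1.06, and just short of it Pes1 at -0.94, Ncl at -0.92 and Wdr12 at -0.91, all by description. The smallest differences were those of Nop10, Ebna1bp2 and Imp3, and Ubtf was the exception in direction. GCRMA values near the array floor understate a difference, and the lowest member value was 4.83, for Polr1b in control replicate 1, above the floor of 2.23.

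Other probe sets of the same genes mostly gave the same direction. In all, 22 members had several tested probe sets, and in 20 of these every tested probe set was lower by description. Over the members, 72 of 74 tested probe sets had a lower mean, though not all separated. A fainter Imp4 probe set read 6.22 and 6.34 against 6.39 and 5.16. The fainter one of Nop10 read 13.30 and 13.28 against 13.08 and 13.30. For Polr1a the fainter one rested on ETV6-RUNX1 replicate 1, at 5.98 and 4.27 against 4.22 in both others. The range between probe sets of 1 gene had a median of 0.23 and was under 0.5 for 19 of the 22. Nolc1 lay between -1.69 and -2.12 over its 3 probe sets and Ncl between -0.64 and -1.18 over its 4. Dkc1 ranged from -1.07 to -1.79. Pes1 disagreed, at -0.94 for the brighter probe set and 0.08 for the other, so its lower level rests on the brighter one. The probe sets of Ubtf gave 0.42 and -0.02. Probe sets of 1 gene share the RNA of the same libraries and are not replicates, and 11 further probe sets lay below the filter. For 7 members the probe set that stood for the gene is of a class whose probes can match other transcripts.

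**Figure D3:**
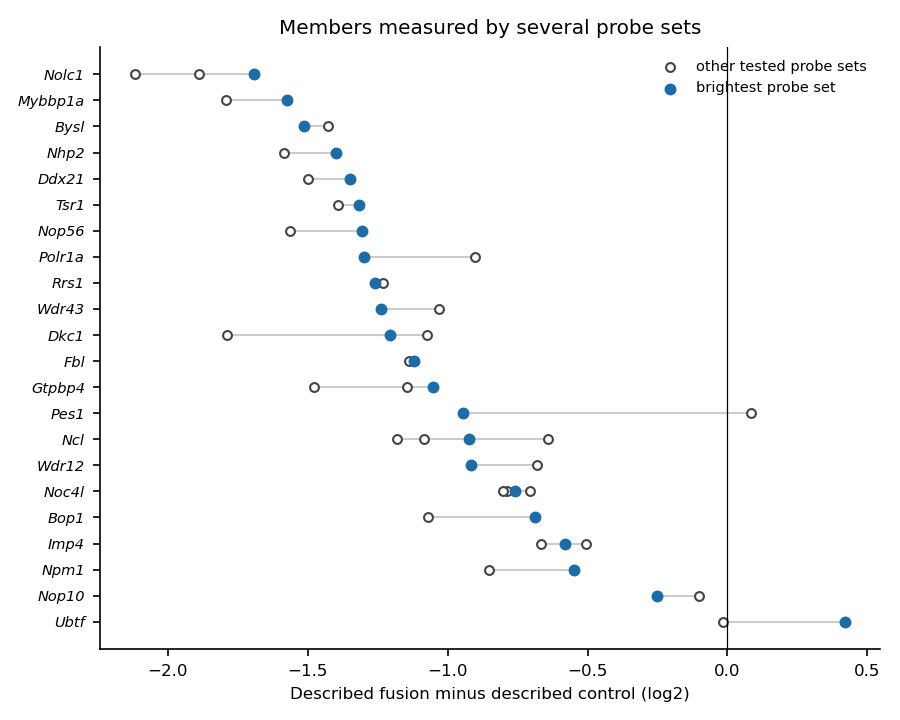
Description difference (log2, horizontal axis) at every tested probe set of the 22 members measured by several; filled points are the brightest probe set and open points the others. In 20 genes all points lie left of 0, and Pes1 and Ubtf are the exceptions.

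Beyond the members, the other genes of the same machinery were lower in most cases but by less. Of 118 further ribosome assembly genes in 5 lists, 109 were lower by description, with a median of -0.61. At least 2-fold lower without overlap were 24, or 20.3%, against 3.67% of all genes. By title 53 of the 118 were lower and 65 higher, with a median of 0.01. In limma by description 0 of the 118 passed, and 53 had an unadjusted p under 0.05 with a lower level, against 9.76% of all genes. By list and by description, 9 of 10 other RNA polymerase I genes were lower with a median of -0.32. So were 38 of 41 other small-subunit factors at -0.61 and 41 of 45 other large-subunit factors at -0.65. All 12 genes of the rRNA exosome, the nuclease complex that trims precursors, were lower with a median of -0.58, and 9 of 10 snoRNP assembly factors with a median of -0.59. The largest differences were -1.77 for the rRNA acetyltransferase gene Nat10, -1.62 for Rrp15 and -1.57 for the polymerase subunit Polr1e. At the other end, Nop53 differed by 0.14, Ddx55 by 0.15 and Rrp36 by 0.31. No test was made of the difference between the members and these lists.

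The genes of the ribosome's own proteins had medians nearer 0. Of 44 cytosolic ribosomal protein genes 31 were lower by description, but the median was -0.04. Of these 44 genes, 2.27% were at least 2-fold lower without overlap, against 3.67% of all genes. The 2.27% is Rpl12, named after its values were seen, at -1.55 (SE 0.54, limma adjusted p = 0.247). The cytosolic genes had a median level of 14.77, against 9.96 for the members, and the highest value on the array was 16.33. Rpl12 read lower, between 6.73 and 9.27. Whether such high readings narrow the differences of the other cytosolic genes was not tested. Family members without a single-symbol probe set are not among the 44. Of 76 mitochondrial ribosomal protein genes 69 were lower, with a median of -0.36, and 6.58% were at least 2-fold lower. By title the medians were -0.04 and 0.03.

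**Figure D4:**
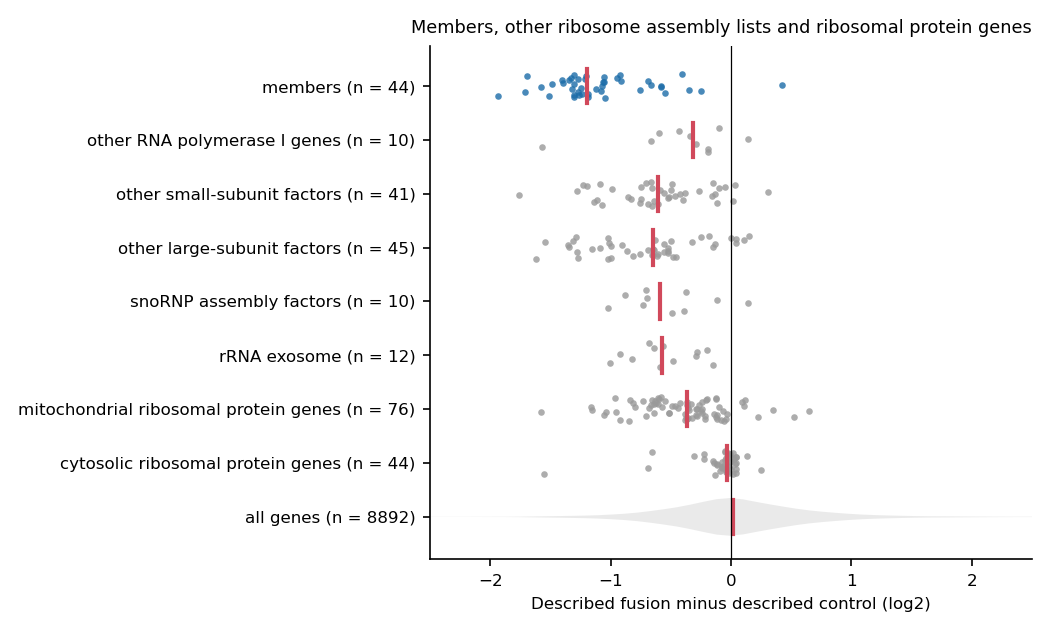
Description difference (log2, horizontal axis) for each gene of the members, of 5 other ribosome assembly lists and of the mitochondrial and cytosolic ribosomal protein genes, with the distribution of all 8892 genes in grey, cut off at the ends of the axis. The red bar is the median, which is -1.20 for the members, between -0.32 and -0.65 for the 5 lists, -0.36 and -0.04 for the ribosomal protein genes and 0.01 for all genes.

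Myc, which was kept out of the set, read 10.38 and 9.94 in the libraries described as control and 7.27 and 7.96 in those described as fusion-expressing (-2.55, SE 0.33, limma adjusted p = 0.132). By title Myc did not separate, and its difference had the opposite sign, at 0.56 (SE 1.34). By E-box the members' medians lay side by side: the 10 with the site had a median description difference of -1.20, and the 29 measured members with a promoter entry but no site had -1.21.

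Several other measurements moved along the same split, and others did not. Of 21 mast cell and myeloid markers on the array 8 passed the filter, and 6 of these were higher and 2 lower in the libraries described as fusion-expressing, with a median of 2.33. Fcer1a, the IgE receptor alpha chain, had the largest difference of the 8, at 6.46. It read 2.37 and 2.32 in the libraries described as control and 9.91 and 7.69 in the others. The 2 lower markers were Mpo, at -1.49, and Prtn3, and the groups overlapped for both. Of the 6 higher markers 5 had groups without overlap, against 2693 of all 8892 genes. In the replicate 1 pair all 8 were higher in the library described as fusion-expressing. In the replicate 2 pair 5 were higher and 3 lower. By title 7 of the 8 were lower, with a median of -0.97. The summed level of the 21 markers was 12.8 and 12.7 (log2) against 13.8 and 12.7. These sums are mostly Gata2, which read 12.71 and 12.60 against 13.26 and 12.44. Their overlap therefore says little about the other markers. Kit, Mcpt1, Mcpt2, Mcpt4, Elane and Ctsg lay at the floor in every library. Of 9 stromal markers only Acta2 passed the filter, higher by 1.39 in the libraries described as fusion-expressing. The 3′ minus 5′ difference of the dap spike, a bacterial transcript used as a labelling control, was 3.10 and 3.19 against 3.71 and 4.43 at 1 probe set pair and 3.07 and 3.14 against 3.80 and 4.11 at the other. The thr spike split the same way, at 4.86 and 4.56 against 5.21 and 5.40 at 1 pair and 3.95 and 3.88 against 4.25 and 4.23 at the other. The lys spike also split the same way, but by less, with differences of 0.14 and 0.09. It was 1.27 and 1.10 against 1.37 and 1.28 at 1 pair and -0.73 and -0.75 against -0.67 and -0.63 at the other. The phe spike differed by 0.04, with overlapping groups, and by -0.08, in the other direction. Among cellular transcripts, the 3′ minus 5′ difference of the transferrin receptor was 1.31 and 4.38 against 3.87 and 4.53 and that of pyruvate carboxylase 2.22 and 3.21 against 2.82 and 3.94. Both were higher on average in the libraries described as fusion-expressing, by 1.35 and 0.66, with overlapping groups and 5′ values that came near the floor, down to 2.76 for the transferrin receptor and lower for pyruvate carboxylase. For Gapdh it lay between -0.37 and -0.30 and for beta-actin between 0.63 and 0.70 in all 4 libraries. The part of these measurements in the members' differences was not tested. Each library had 17517 to 17688 probe sets at 4 or more on the log2 scale.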

How the data were processed

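RNA levels were measured in 4 libraries on a mouse 3′ expression array with 45101 probe sets. The deposited log2 values were made by the authors in GCRMA (2.28.0, per the submitters' processing notes), which corrects background by probe sequence, normalizes and summarises probe sets. Filters and batch steps are not given in the labels used here. The log2 scale was read from the values, and symbols are those of the platform annotation. Control probe sets were left out, a mean of at least 4 kept 17720, and groups of 2 went into limma (3.58.1, R 4.3.3; lmFit, eBayes with trend, two-sided, Benjamini-Hochberg over all 17720, threshold 0.05). This leaves 2 residual degrees of freedom. The SE is limma's moderated standard error. Per-library values are given in each role group for the 3 members with the highest mean and those with the largest and smallest description difference; of the other assembly genes the 3 largest and 3 smallest are named. The members and lists were chosen with earlier results of these data known. Alternatives were the filter, the variance model, the normalization, the choice of probe set, the replicate number as a block and leaving out each library. Same-numbered libraries share only a number. The number of arrays limits the precision. Scanner files and batches were not analysed here.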

Additional observations from a re-analysis of the deposited data

How the results depend on the processing

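The members' median of -1.20 by description stayed negative under each alternative that could change it. It was -1.18 after quantile normalization, -1.23 after median centring and -1.19 with the mean of all probe sets of a gene. It lay between -0.91 and -1.43 when 1 library was left out. Dropping the filter, changing the variance model and adding the replicate block cannot change a difference and bear only on p-values. In limma 0 members passed under any alternative that kept all libraries. The count of probe sets past the threshold over the whole array was 2 with the settings used, 0 without the filter, 14 after quantile normalization, 10 after median centring and 11 with the mean of all probe sets of a gene. It was 0 with the replicate block, under which the members' median stayed at -1.20 and 0 members passed, with a lowest adjusted p of 0.0593 in limma; the deviations of same-numbered libraries correlated at 0.59 by description and -0.20 by title. With the description label as a block, which joins libraries of unlike replicate number, 0 probe sets passed by title. Leaving out 1 library gave 0 probe sets each time, 16 to 34 members at least 2-fold lower and, by title, 0 to 44 members lower. The title difference ranged from -0.57 to 1.20 for Nop56 and from -1.26 to 0.60 for Rrp9, with -0.10 for Nop56 without ETV6-RUNX1 replicate 1, and the description difference of Ubtf from -0.12 to 0.96. The causes were not tested. Of the single-gene differences under alternatives, 549 kept their direction and their side of the threshold and 4 reversed. The 549 include the runs that cannot change a direction.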
